A study of Homo sapiens with 6 samples.

Results

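The 8 genes described here encode transcription factors that act in the endoderm and in the epithelia derived from it: NKX2-1, FOXA1, FOXA2, GATA6, CEBPA, HNF4A, HNF4G and SOX9. They were taken by symbol from the deposited count tables, which list 26485 genes, and all 8 were found and passed the filter on low counts (at least 10 counts in at least 3 of the 6 libraries). The libraries came from A549, an established human lung adenocarcinoma cell line, which stably expressed dCas9-KRAB (a catalytically dead Cas9 fused to the KRAB repressor domain) and rat Nkx2-1, both delivered by lentivirus, with puromycin selection for dCas9-KRAB and GFP sorting for Nkx2-1. In 3 libraries the cells had received sgRNA #2, directed at the first intron of SFTPB (the gene of surfactant protein B), and in 3 a non-targeted sgRNA control. Rat Nkx2-1 was driven by the PGK promoter and was present in both groups, so the comparison is of CRISPRi at the SFTPB intron and not of cells with and without NKX2-1. The study describes the replicates as biologically independent, and the labels number them without saying how they were separated, so the p-values below measure the spread between these samples. Reads counted in genes ranged from 6047554 to 7584611 per library.

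Members of this group open chromatin and set organ identity along the gut tube. FOXA1 and FOXA2 (forkhead) and GATA6 (zinc finger) are pioneer factors of early endoderm. NKX2-1, a homeodomain protein, then specifies lung and thyroid and drives surfactant genes, whereas the nuclear receptors HNF4A and HNF4G act in liver, stomach and intestine. CEBPA serves the maturation of alveolar and liver cells, and SOX9 marks the growing tips of the lung buds. In lung adenocarcinoma, loss of NKX2-1 is known to be accompanied by gastrointestinal programs that depend on FOXA factors and HNF4A.

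The sequences shown first are the guide target and a match to it of the greatest length found near the starts of HNF4A and of FOXA1. These were the only members at an unadjusted p under 0.05, and FOXA1 did not pass after adjustment. Each is written 5′ to 3′ with the 3 bases of the PAM at its end, and capitals mark, in the first line, the 10 bases of the target next to the PAM and, in the lines after it, the bases next to the PAM that match the target without a break. All were read from hg38, from chr2:85668529-85668551 (minus strand), chr20:44401090-44401112 (minus strand) and chr14:37594569-37594591 (plus strand).
sgRNA #2 target, SFTPB first intron: gggatgggagGGGAACACCCagg
HNF4A, 138 bases before a start site: ttggtttctggctgACACCCggg
FOXA1, 318 bases before a start site: ctcgcccgcccgctgCACCCcgg
The HNF4A site shares 6 bases next to the PAM and the FOXA1 site 5, with 10 and 13 mismatches over the target respectively. Among matches of equal length near a gene only the first one met was kept. The mismatch counts therefore belong to the kept site and need not be the lowest near that gene. Within 1000 bp of an annotated start, 24.2% of 13066 tested genes hold a match of 6 or more such bases and 76.8% one of 5 or more. A match of 6 bases was the longest near any of the 8 members and was also found near HNF4G (11 mismatches), and GATA6 held one of 5 (8 mismatches); neither gene passed the test, at log2 fold changes of 0.14 and -0.01. These matches describe letters only, and binding of dCas9-KRAB at them was not measured.

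Of the 8 factors, HNF4A fell with sgRNA #2, and none of the other 7 passed the test. The edgeR quasi-likelihood test with Benjamini-Hochberg adjustment over the 13356 genes tested called a gene at an adjusted p under 0.05 together with a log2 fold change of 1 or more, up or down. It called 96 genes, which is 0.719% of those tested, and 92 of them (0.689%) were lower with sgRNA #2. By adjusted p alone 359 genes passed, or 2.69%. HNF4A was the single member past either threshold, 1 of 8. It was also the single one by DESeq2, where 302 of the 13356 genes passed an adjusted p of 0.05. At an unadjusted p under 0.05, FOXA1 joined HNF4A, where 11.1% of the genes tested stood. Groups without overlap were found for 3 of the 8 members (HNF4A, FOXA1 and NKX2-1), against 15.6% of the genes tested. SFTPB itself, the targeted gene, was at 426, 407 and 414 counts per 1000000 reads in genes (CPM, after TMM scaling) in the control libraries and at 5.68, 6.30 and 8.15 CPM in the sgRNA #2 libraries. This is a log2 fold change of -5.96 ± 0.101 (SE, edgeR adjusted p = 5.55e-17).

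**Figure D1:**
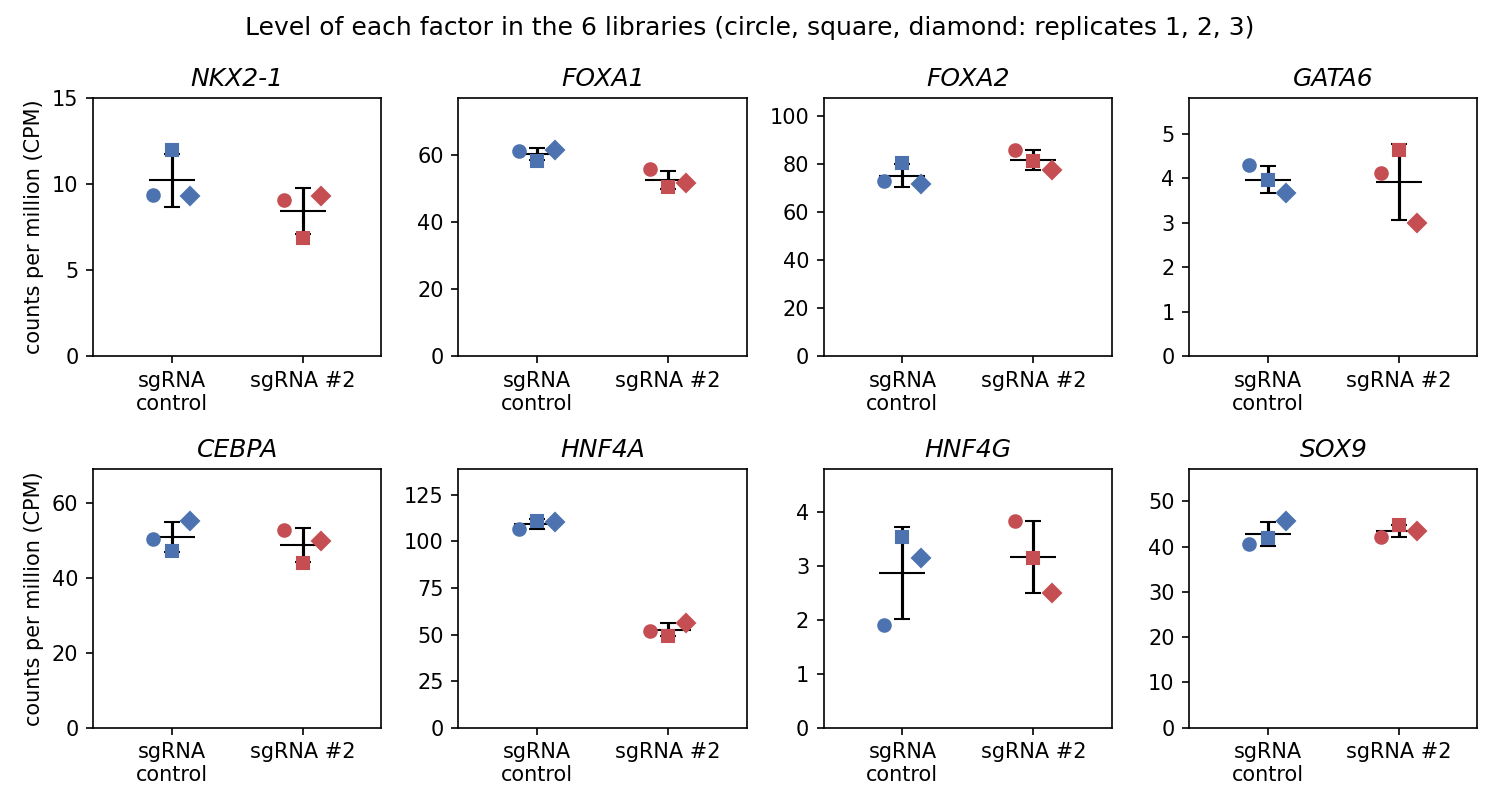
CPM (vertical axes, from 0) of each of the 8 factors in the sgRNA control and sgRNA #2 libraries; each point is a library, its shape the replicate number, and bars are the mean ± SD of 3 libraries. HNF4A lies between 107 and 111 CPM in the control and between 49.5 and 56.4 CPM with sgRNA #2, whereas the points of FOXA2, GATA6, CEBPA, HNF4G and SOX9 overlap.

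HNF4A is the nuclear receptor at the head of the hepatocyte and intestinal gene network. It was counted 670, 785 and 843 times in the control libraries and 367, 330 and 339 times in the sgRNA #2 libraries, which is 107, 111 and 111 CPM against 52.1, 49.5 and 56.4 CPM. Every sgRNA #2 library was far below every control library, and the groups did not overlap. The mean went from 109 ± 2.51 to 52.6 ± 3.48 CPM (SD, n = 3), to 48.1% of the control. The log2 fold change was -1.06 ± 0.0739 (SE; 95% interval -1.21 to -0.90; edgeR adjusted p = 4.86e-08), the 18th smallest p of the 13356 genes. In these bulk libraries, fewer cells expressing HNF4A and less HNF4A RNA in each cell cannot be told apart. The change sat at the cut-off of 2-fold, so glmTreat, an edgeR test against 2-fold that was added after the data were seen, did not call it, with an adjusted p of 1.0. HNF4A lies on chromosome 20 at 44355699 to 44432845 (hg38, plus strand, GENCODE release 44), with 10 exons in its canonical transcript and 17 annotated transcripts. The gene is known to use 2 promoters, P2 upstream at 44355699 and P1 downstream at 44401239, and counts per gene do not tell which of them changed.

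The 250 bases before the P1 start of HNF4A are shown because the kept 6-base match to the guide lies there. Capitals mark that stretch, which appears on this strand as the reverse complement of the capitals in the HNF4A site above. The sequence is from GRCh38.p14, chr20:44400989-44401238, plus strand.
HNF4A P1 upstream: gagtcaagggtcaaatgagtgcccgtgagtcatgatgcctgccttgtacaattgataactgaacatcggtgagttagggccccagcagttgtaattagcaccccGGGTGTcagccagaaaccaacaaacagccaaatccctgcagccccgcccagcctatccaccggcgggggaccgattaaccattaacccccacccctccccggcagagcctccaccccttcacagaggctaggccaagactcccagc
RefSeq promoter windows, from 250 bases before to 50 bases after a start, were at hand for 5 of the 8 members, with 2 each for NKX2-1 and HNF4A. On both strands, the NKX2-1 core CAAG was found 1 and 3 times in the HNF4A windows, and 86.0% of 35116 windows hold it at least once. The GATA motif AGATAA was found once in an HNF4A window and once in an NKX2-1 window, against 10.3% of all windows. The FOXA motif TGTTTAC was found in 1 window of NKX2-1, against 3.42% of all windows. The HNF4 motif CAAAGTCCA and the CEBP motif TTGCGCAA, held by 0.384% and 0.151% of all windows, were in none of the members' windows. CAAG and AGATAA can share the letters AG at their ends. These are matches of letters, not binding sites.

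**Figure D2:**
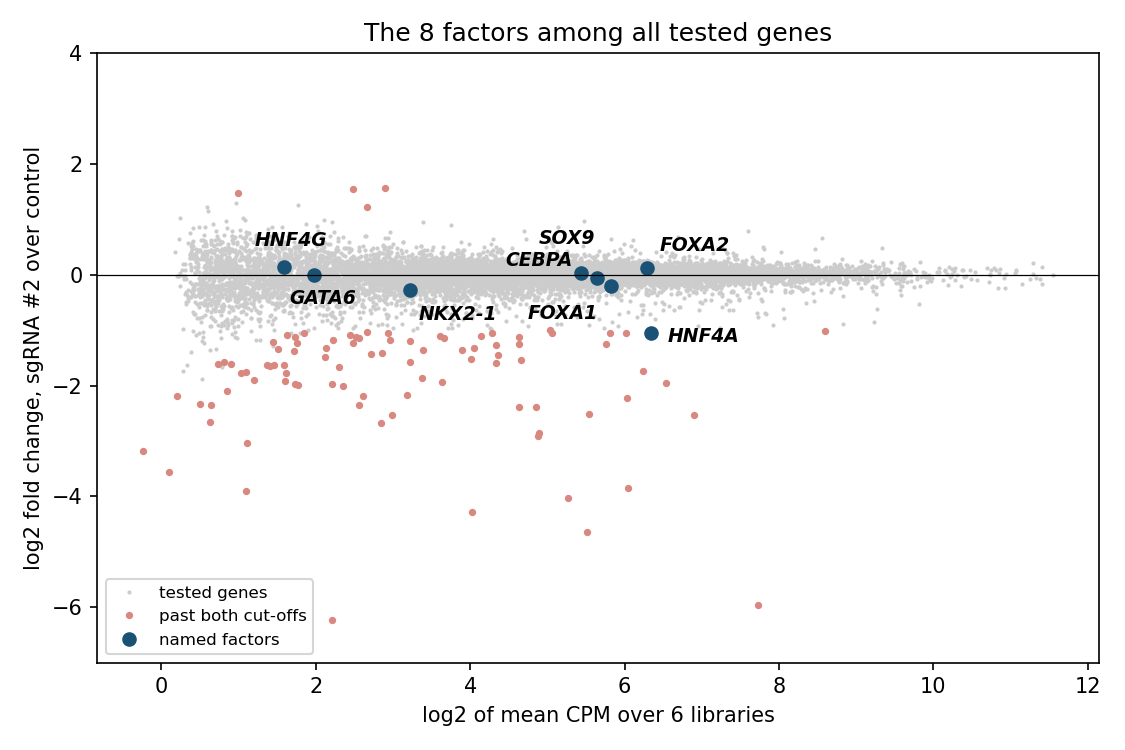
Log2 fold change of sgRNA #2 over control (vertical axis) against the log2 of the mean CPM over 6 libraries (horizontal axis) for the 13356 genes tested, with genes past both cut-offs in red and the 8 factors in blue. HNF4A at -1.06 lies at the edge of the genes past both cut-offs, and the other 7 factors lie within the cloud of genes not called.

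HNF4G and the ONECUT factors listed with HNF4A did not pass the test. HNF4G, its close paralogue, was near the limit of the test, at 12 to 27 counts in the 6 libraries. HNF4G gave a log2 fold change of 0.14 ± 0.291 (SE, adjusted p = 0.924), with an interval from -0.48 to 0.75, so a change of up to about that size could not be detected at this depth. Of the 5 HNF4 and ONECUT factors listed, 4 were tested and HNF4A alone passed, by edgeR and by DESeq2. Of all genes tested 2.69% passed by edgeR, and 302 of the 13356 by DESeq2. ONECUT2, a cut-homeodomain factor of liver and pancreas, was counted 70, 124 and 107 times in the control and 103, 131 and 118 times with sgRNA #2, with a log2 fold change of 0.32 ± 0.165 (SE, adjusted p = 0.504). With 1 library left out the ONECUT2 value lay between 0.18 and 0.50. ONECUT1, of the same family, was at 2.33 CPM in the control and 2.06 CPM with sgRNA #2 (adjusted p = 0.931). The ratio of HNF4A to FOXA2 counts within a library, which no scaling can move, was 1.46, 1.38 and 1.54 in the control and 0.606, 0.608 and 0.726 with sgRNA #2. The ratio did not overlap between the groups, and the two-sided exact permutation test gave p = 0.10, the smallest that 3 against 3 libraries can give (also 0.10 after Benjamini-Hochberg adjustment over the 2 ratios computed). It sets HNF4A, which passed on its own, over FOXA2, whose log2 fold change was 0.12. The ratio is therefore not evidence independent of the HNF4A result.

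Genes near HNF4A on chromosome 20 were examined next, with all 11 tested genes that start within 500 kb. WISP2, which encodes a secreted matricellular protein and starts 359145 bp downstream, was at 10.0, 11.7 and 9.84 CPM in the control and 2.13, 6.0 and 3.82 CPM with sgRNA #2. WISP2 gave a log2 fold change of -1.41 ± 0.253 (SE, adjusted p = 0.00333). TOX2, an HMG-box factor 440847 bp upstream, was at 6.25 CPM in the control and 3.36 CPM with sgRNA #2 (log2 fold change -0.91 ± 0.239, adjusted p = 0.0515, and 0.00158 in a fit with the replicate number as a block). TOX2 also passed with no count filter (0.00723), with at least 10 counts in every library (0.0431) and without control replicate 1 (0.0174). With 1 library left out its edgeR adjusted p reached as much as 0.205. Of the tested genes between TOX2 and WISP2, HNF4A alone passed. JPH2, of the junctional membrane of muscle cells and 168511 bp upstream, was at 2.24 CPM in the control and 1.16 CPM with sgRNA #2, without overlap of the groups, and did not pass (log2 fold change -0.93, adjusted p = 0.243). Its counts of 14, 16 and 17 in the control and 7, 10 and 6 with sgRNA #2 met the count minimum mainly through the control. FITM2, 44497 bp upstream and the closest of the 11, stood at -0.31 on the log2 scale (adjusted p = 0.441), and at -0.15 without control replicate 2. RIMS4, at 13, 15 and 10 counts in the control and 6, 12 and 3 with sgRNA #2, likewise met the minimum mainly through the control. Its log2 fold change was -0.76 (adjusted p = 0.567). Over the 11 genes the log2 fold changes ran from -1.41 to 0.12 with a median of -0.30, and 8 were below 0, against 48.9% of all genes tested. JPH2 and RIMS4 are among those 8, so the median and the count support nothing about the region. WISP2, TOX2, JPH2, RIMS4 and FITM2 were picked after their values had been seen.

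**Figure D3:**
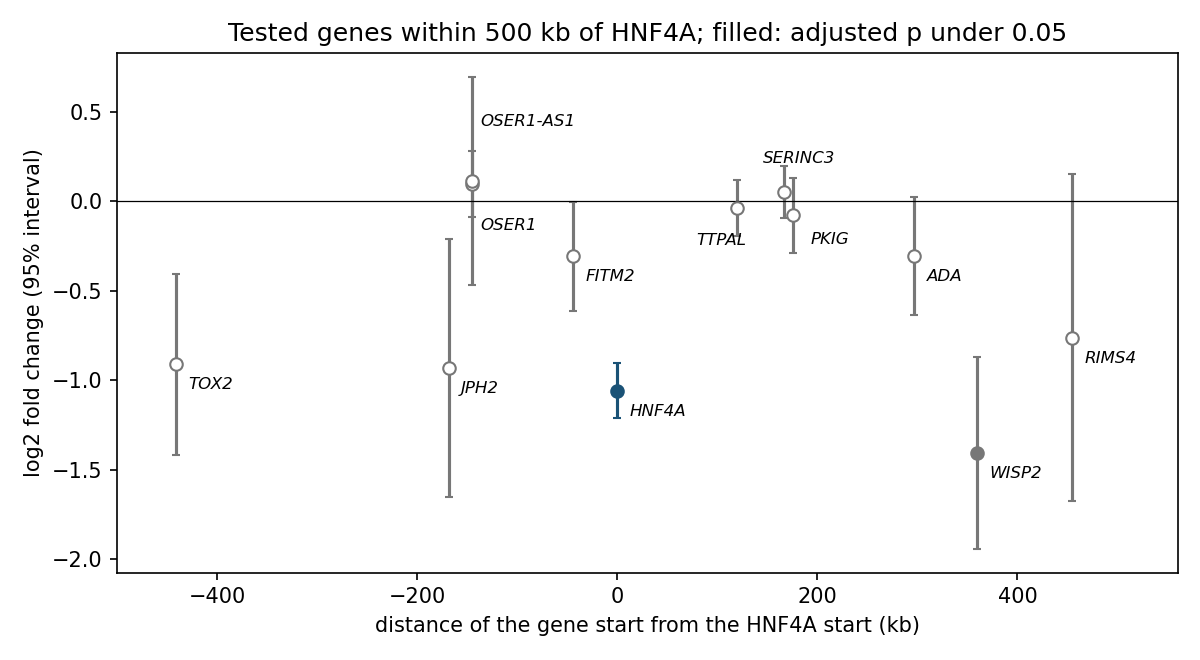
Log2 fold change with its 95% interval (vertical axis) of HNF4A (blue) and of the 11 tested genes that start within 500 kb of it, against the distance of their starts in kb (horizontal axis, 0 at HNF4A). WISP2 at -1.41 and HNF4A at -1.06 are filled as past an adjusted p of 0.05, and the other genes are open. Below 0 lie 8 of the 11 neighbours, among them JPH2 and RIMS4, which met the count minimum mainly through the control.

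NKX2-1 is read here from the row of the human gene, and its counts need care. A549 cells are described as not expressing their own NKX2-1, while all the cells carried the rat coding sequence. Reads of the rat transcript that align to the human gene and reads of the human transcript cannot be told apart in the deposited counts. The human row was counted 59, 85 and 71 times in the control and 64, 46 and 56 times with sgRNA #2, which is 9.38, 12 and 9.32 CPM against 9.09, 6.90 and 9.31 CPM. The groups did not overlap, but the lowest control library and the highest sgRNA #2 library were nearly equal. Mean levels were 10.2 ± 1.54 and 8.43 ± 1.33 CPM (SD, n = 3), with a log2 fold change of -0.28 ± 0.179 (SE; 95% interval -0.66 to 0.09; adjusted p = 0.627). With 1 library left out the value lay between -0.35 and -0.15, and it was -0.15 without control replicate 2 and -0.16 without sgRNA #2 replicate 2. The interval leaves room for a decrease of up to 0.66 on the log2 scale and does not reach the 2-fold cut-off.

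The named genes that overlap NKX2-1 had no counts in these libraries. NKX2-1 lies on chromosome 14 at 36516392 to 36521149 (minus strand), where the annotation also places SFTA3 on the same strand and NKX2-1-AS1 on the other. SFTA3 and NKX2-1-AS1 had 0 counts in all 6 libraries, which allows up to 0.496 CPM in the shallowest one (3 counts, counting error only). Because 38.7% of the 50-base stretches of the NKX2-1 transcripts also occur in NKX2-1-AS1, SFTA3 or NKX2-4, reads from there could have been discarded as ambiguous or multiply aligned. Further out on chromosome 14, NKX2-8 had 0 to 4 counts per library. Of the 11 genes listed beside NKX2-1 and FOXA1, 8 were tested and none passed by edgeR or DESeq2 (0 at an unadjusted p under 0.05), with a median log2 fold change of -0.12 against 0.00 over all tested genes. The most abundant of them per length were BRMS1L, a chromatin repressor subunit, at 27.8 and 26 CPM in the control and sgRNA #2 groups, and MBIP, a signalling adaptor, at 14.7 and 13.2 CPM.

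Of the 13 NKX genes listed, 2 were tested, NKX2-1 and NKX2-5, and neither passed by edgeR or DESeq2 (0 at an unadjusted p under 0.05). NKX2-5, a heart factor, had a mean level per exon length of 38.9 TPM (transcripts per 1000000), above the 13.5 TPM of the human NKX2-1 row. NKX2-5 was at 17.5 CPM in the control and 17.1 CPM with sgRNA #2, with a log2 fold change of -0.03 (adjusted p = 0.970). NKX3-2, a skeletal and gut mesenchyme factor with 4 to 14 counts per library, was not tested. Among the proteins known to bind or assist NKX2-1, 7 of 8 genes were tested and none passed by edgeR or DESeq2 (0 at an unadjusted p under 0.05). The coactivator WWTR1 (TAZ) was at 499 CPM in the control and 543 CPM with sgRNA #2 (log2 fold change 0.12, adjusted p = 0.619), and the TGF-beta mediator SMAD3 was at 409 and 443 CPM (0.12, adjusted p = 0.531). With the replicate block, WWTR1 passed at an adjusted p of 0.0376. Without the block and with 1 library left out, its log2 fold change lay between 0.058 and 0.19.

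FOXA1 and FOXA2, the forkhead pioneers, had differences of opposite sign, neither past the threshold without a replicate block. FOXA1 was at 61.0, 58.3 and 61.5 CPM in the control and 55.7, 50.4 and 51.7 CPM with sgRNA #2. All 3 sgRNA #2 libraries were below all 3 control libraries, with means of 60.3 ± 1.76 and 52.6 ± 2.75 CPM (SD, n = 3). For FOXA1 the log2 fold change was -0.20 ± 0.0793 (SE; 95% interval -0.36 to -0.03; adjusted p = 0.311). A fit with the replicate block gave FOXA1 an adjusted p of 0.0408, and in that fit 10.0% of all genes tested passed, 6.06% as lower and 3.97% as higher. The block fit estimated an infinite prior degrees of freedom, so its p-values rest on the dispersion trend alone.

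FOXA2 was at 73.1, 80.6 and 71.9 CPM in the control and 86.0, 81.4 and 77.7 CPM with sgRNA #2. The groups overlapped, and the log2 fold change was 0.12 ± 0.0755 (SE; 95% interval -0.04 to 0.28; adjusted p = 0.623). The ratio of FOXA2 to FOXA1 counts within a library was 1.20, 1.38 and 1.17 in the control and 1.55, 1.62 and 1.5 with sgRNA #2. The ratios of the groups did not overlap, and the two-sided exact permutation test gave p = 0.10, the smallest possible; this ratio is 1 of 2 that were computed and was chosen after its values had been seen. FOXA3, the remaining member of the family, had 3 to 7 counts per library and was not tested. FOXA1 (chromosome 14, 37589552 to 37596059, minus strand) and FOXA2 (chromosome 20, 22580998 to 22585455, minus strand) share no 50-base stretch with another annotated gene. LINC00261, the non-coding RNA beside FOXA2, was at 11.5 and 9.80 CPM in the control and sgRNA #2 groups (adjusted p = 0.730).

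GATA6, a pioneer factor of endoderm, was counted 27, 28 and 28 times in the control and 29, 31 and 18 times with sgRNA #2. Mean levels were 3.98 ± 0.309 and 3.92 ± 0.845 CPM (SD, n = 3), with a log2 fold change of -0.01 ± 0.244 (SE) and an interval from -0.52 to 0.51. At this depth a change smaller than those bounds was not detectable. Per length, GATA4 and GATA2 were the most abundant of the family, with means of 9.41 and 8.46 TPM against 4.78 TPM for GATA6. GATA4 and GATA2 were at 8.66 and 8.64 CPM in the control and 9.52 and 9.43 CPM with sgRNA #2, and of the 3 GATA genes tested none passed by edgeR or DESeq2 (0 at an unadjusted p under 0.05). GATA6 lies on chromosome 18 at 22169589 to 22202528 (plus strand), and GATA6-AS1, which overlaps it on the other strand, had 0 to 3 counts per library. Of the 8 non-coding RNA symbols listed beside members, 7 were in the deposited counts (CEBPA-DT was not) and 2 were tested. These were CEBPA-AS1 (5.60 and 5.63 CPM in the control and sgRNA #2 groups) and LINC00261, and neither passed by edgeR or DESeq2.

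CEBPA, a leucine zipper factor of alveolar and liver maturation, was at 50.4, 47.1 and 55.1 CPM in the control and 52.7, 43.8 and 49.7 CPM with sgRNA #2. The groups overlapped, and the log2 fold change was -0.06 ± 0.0935 (SE; 95% interval -0.26 to 0.13; adjusted p = 0.886). CEBPA is a single exon on chromosome 19 at 33299934 to 33302534 (minus strand), and 37.6% of its 50-base stretches also belong to transcripts annotated on the other strand. Since the strand setting of the counting is not given in the sources used here, reads of CEBPA and of its antisense partners could have been set aside as ambiguous. Of the 5 CEBP genes, 4 were tested and none passed by edgeR or DESeq2. At an unadjusted p under 0.05 there was 1 (CEBPB), against 11.1% of all genes tested. CEBPB, which responds to inflammatory and stress signals, was at 91.1, 110 and 95.9 CPM in the control and 82.8, 81.0 and 80.0 CPM with sgRNA #2. For CEBPB the log2 fold change was -0.29 ± 0.0773 (SE, adjusted p = 0.0606), and the adjusted p with the block was 2.93e-05. CEBPB also passed with no count filter (0.0165) and without control replicate 1 (0.0298). With 1 library left out its edgeR adjusted p reached as much as 0.29. CEBPD was at 79.6 and 78.8 CPM in the control and sgRNA #2 groups (adjusted p = 0.977).

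SOX9, an HMG-box factor of lung bud tips and of cartilage, gave 40.5, 41.9 and 45.7 CPM in the control and 42.2, 44.8 and 43.4 CPM with sgRNA #2. The log2 fold change was 0.02 ± 0.0881 (SE; 95% interval -0.16 to 0.21; adjusted p = 0.957). SOX9 lies on chromosome 17 at 72121020 to 72126416 (plus strand) and shares no 50-base stretch with another gene. Among the 20 SOX genes listed, 10 were tested and none passed by edgeR or DESeq2. At an unadjusted p under 0.05 there was 1 (SOX21), against 11.1% of all genes tested. SOX21 was at 3.50 CPM in the control and 5.59 CPM with sgRNA #2 (adjusted p = 0.265, and 0.0394 with the block). It was named after its values had been seen. Its log2 fold change was 0.69, and between 0.37 and 0.86 with 1 library left out. SOX12 and SOX4, which belong to the same subgroup of the family, were the most abundant per length, at 179 and 116 CPM in the control and 176 and 105 CPM with sgRNA #2 (adjusted p = 0.942 and 0.503).

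**Figure D4:**
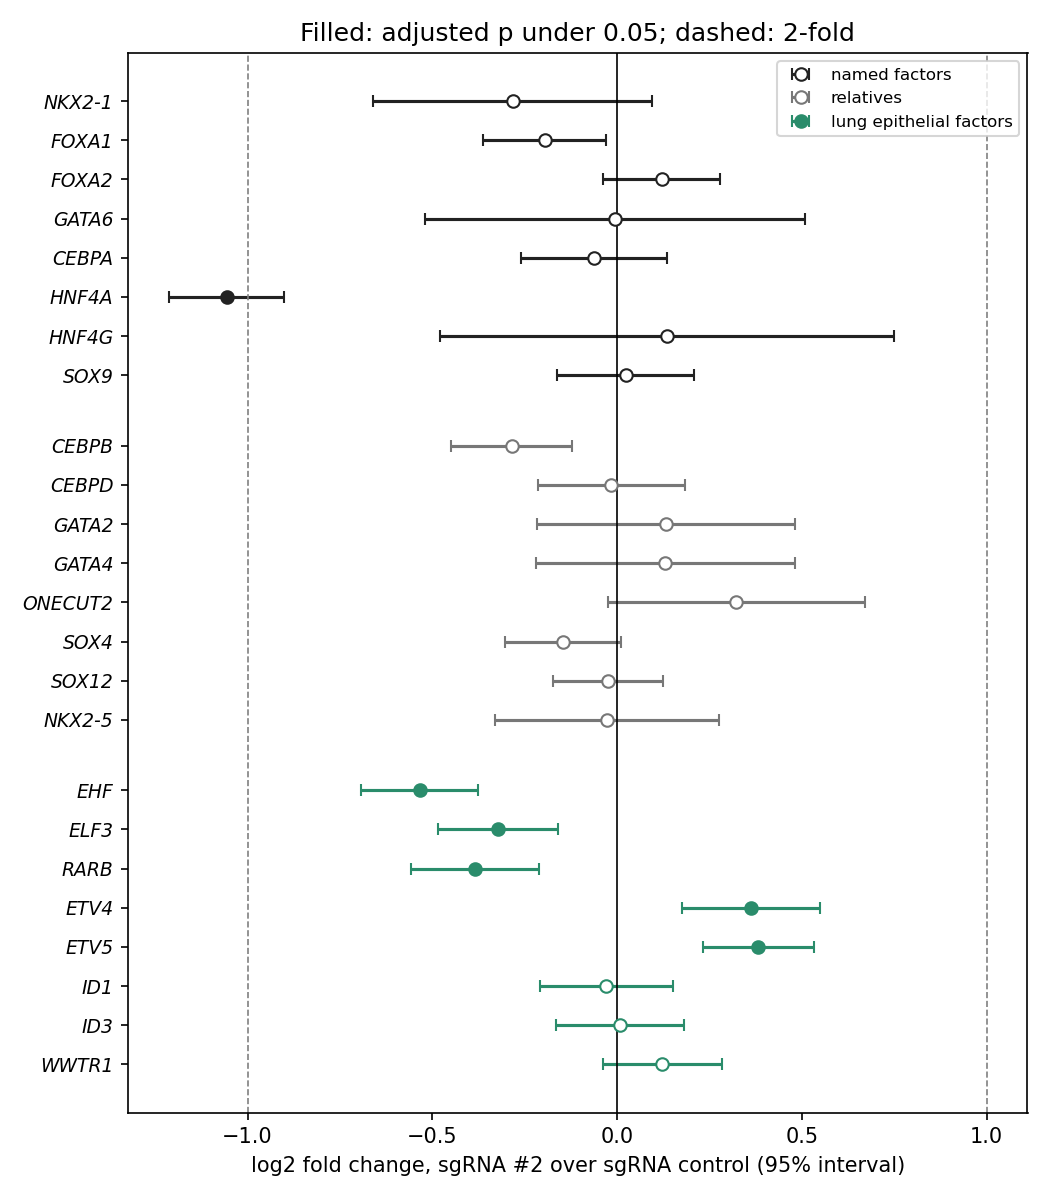
Log2 fold change of sgRNA #2 over control with its 95% interval (horizontal axis) for the 8 factors (black), their relatives (grey) and lung epithelial factors (green); filled points have an adjusted p under 0.05 and dashed lines mark 2-fold. HNF4A at -1.06 is the only filled black point, EHF, ELF3 and RARB are filled on the left, and ETV4 and ETV5 on the right.

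Levels of different genes were compared per exon length, in TPM. FOXA2 was the most abundant of the 8, with a mean of 133 TPM over the 6 libraries and a range from 121 to 147 TPM. CEBPA followed at 88.0, FOXA1 at 58.8, SOX9 at 50.4, HNF4A at 36.6, NKX2-1 at 13.5, GATA6 at 4.78 and HNF4G at 2.89 TPM. The NKX2-1 value is that of the human row in cells that also carried rat Nkx2-1. It measures neither the total NKX2-1 RNA nor the human transcript alone, so the place of NKX2-1 holds for that row only. FOXA2 and CEBPA, CEBPA and FOXA1, HNF4A and NKX2-1, and NKX2-1 and GATA6 had ranges over the libraries that did not overlap. The ranges of FOXA1 and SOX9, of SOX9 and HNF4A, and of GATA6 and HNF4G overlapped over the libraries. Within a library FOXA1 was above SOX9 in 6 of 6 (ratio 1.00 to 1.34) and GATA6 above HNF4G in 6 of 6 (1.36 to 2.84), while SOX9 was above HNF4A in 4 of 6. HNF4A was at 49.2 ± 1.13 TPM in the control, level with SOX9 at 49.7 ± 3.25 TPM, and at 23.9 ± 1.41 TPM with sgRNA #2 (SD, n = 3). Among all tested genes with a length, the mean of FOXA2 stood at the 85.3rd percentile and that of HNF4G at the 7.44th. The place of HNF4A rests on the length used, because its exons sum to 10167 bases over 17 transcripts while the longest transcript has 4739. Divided by the longest transcript, HNF4A had a mean of 57.8 TPM and came after CEBPA, ahead of FOXA1 at 54.5 TPM.

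**Figure D5:**
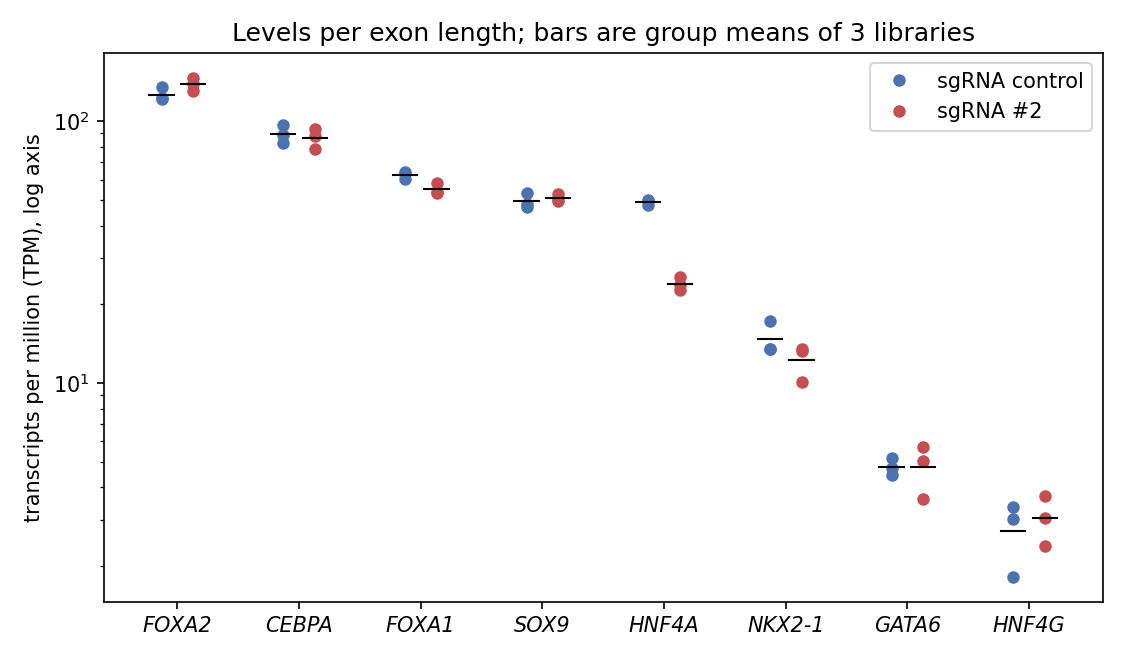
TPM (vertical log axis) of the 8 factors in the sgRNA control (blue) and sgRNA #2 (red) libraries, ordered by the mean over all 6 libraries, with bars for the means of 3 libraries. FOXA2 lies between 121 and 147 TPM at the left and HNF4G between 1.82 and 3.70 TPM at the right, and the control and sgRNA #2 points of HNF4A are far apart, at 49.2 and 23.9 TPM on average.

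The genes whose CPM ran most like NKX2-1 over the 6 libraries were LYSMD4, DAB2IP and MFSD9, with Pearson r of 0.970, 0.962 and 0.961 of log2 CPM among 10214 genes with a mean of at least 10 CPM. For FOXA2, the most abundant member, they were TFIP11, B4GALT3 and TMEM63A, with r of 0.993, 0.992 and 0.986. With 6 libraries such values are descriptive: 46 genes had r over 0.9 with NKX2-1 and 80 with FOXA2. None of these 6 genes passed the test between the groups.

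Other factors of lung epithelium changed. Of 30 listed genes 24 were tested, 2 rose and 3 fell by adjusted p, and none reached 2-fold; the median log2 fold change was -0.04. The background shares were 0.464% of tested genes for a rise and 2.22% for a fall. EHF, an ETS factor of airway and gut epithelium, was at 102, 119 and 104 CPM in the control and 72.6, 76.3 and 75.0 CPM with sgRNA #2. Its log2 fold change was -0.53 ± 0.0753 (SE, adjusted p = 2.72e-04). ETV5, an ETS factor downstream of FGF signalling in the distal lung bud, went the other way, from 61.4, 63.9 and 65.5 CPM to 81.2, 84.7 and 83.0 CPM. Its log2 fold change was 0.38 ± 0.0713 (SE, adjusted p = 0.00459). The groups did not overlap for either gene.

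The remaining 3 genes past the threshold were named after their values had been seen. On the log2 scale ELF3, another epithelial ETS factor, differed by -0.32 (adjusted p = 0.0288), RARB, a retinoic acid receptor, by -0.38 (adjusted p = 0.0125), and ETV4, the close relative of ETV5, by 0.36 (adjusted p = 0.0318). ELF3, RARB and ETV4 passed less firmly than EHF and ETV5. Leaving out 1 library took the adjusted p of ELF3 to as much as 0.209 (without sgRNA #2 replicate 1), that of RARB to 0.0947 (without sgRNA #2 replicate 1) and that of ETV4 to 0.160 (without sgRNA #2 replicate 3). DESeq2 gave ETV4 an adjusted p of 0.0527, so that 4 genes of the list passed by DESeq2, against 302 of all 13356 genes tested. The most abundant factors of the list per length were ID1 and ID3, inhibitors of bHLH proteins, at 299 and 233 CPM in the control and 292 and 235 CPM with sgRNA #2 (adjusted p = 0.941 and 0.988).

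Factors of gut, liver and pancreas other than the members did not pass: 10 of 21 were tested, with 0 past the threshold by edgeR or DESeq2, 3 at an unadjusted p under 0.05 (11.1% of all genes tested) and a median log2 fold change of 0.02. Those 3 were named after their values had been seen: HLX and NR1H4 were lower and KLF4 higher with sgRNA #2, and with the block HLX and KLF4 passed (adjusted p = 0.0365 and 0.0101). HHEX, a homeodomain factor of the foregut, was at 66.9 and 68.5 CPM in the control and sgRNA #2 groups (adjusted p = 0.939), and TBX3, a T-box factor of liver buds, was at 69.2 and 69.1 CPM (adjusted p = 0.994). Genes that such factors are known to drive were read beside them. Of 16 liver secretory genes 6 were tested and none passed by edgeR or DESeq2, with 3 at an unadjusted p under 0.05 (FGA, FGB and SERPINA1, against 11.1% of all genes tested) and a median log2 fold change of 0.13. The fibrinogen chains FGA and FGB were at 49.5 ± 9.62 and 47.5 ± 11.9 CPM in the control and at 66.9 ± 18.4 and 60.4 ± 14.9 CPM with sgRNA #2 (SD, n = 3; adjusted p = 0.226 and 0.441). With the replicate block FGA and FGB passed as higher, at 1.28e-08 and 2.82e-05. Their log2 fold changes of 0.43 and 0.34 came to 0.19 and 0.12 without sgRNA #2 replicate 2 (adjusted p = 0.709 and 0.864), and FGA passed without sgRNA #2 replicate 1 (0.0483). With no count filter both passed (1.87e-04 and 0.0117).

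Of 14 stomach and intestine genes 5 were tested and VIL1 (villin, of the brush border) was called lower, against 0.689% of all genes tested. It was counted 11, 27 and 15 times in the control and 6, 6 and 4 times with sgRNA #2, so that it entered the test through the control libraries alone and was not tested where 10 counts were asked of every library, and the call supports nothing on the list. It was at 1.75, 3.82 and 1.97 CPM in the control and 0.852, 0.899 and 0.665 CPM with sgRNA #2. The log2 fold change was -1.62 ± 0.419 (SE, adjusted p = 0.0478). That call rested on single libraries: without control replicate 2 the adjusted p was 0.276, without sgRNA #2 replicates 1, 2 and 3 it was 0.160, 0.117 and 0.130, and DESeq2 gave 0.167. CLDN2, a claudin of leaky epithelia and the most abundant of the list per length, was at 831 ± 65.2 CPM in the control and 690 ± 57.3 CPM with sgRNA #2 (SD, n = 3; adjusted p = 0.0727, 0.0401 by DESeq2 and 9.94e-09 with the block). CLDN2 also passed with no count filter (0.00246), without control replicate 1 (0.029) and without sgRNA #2 replicate 3 (0.0225). With 1 library left out its edgeR adjusted p reached as much as 0.377.

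A list of 30 known HNF4A target genes was drawn up after the change of HNF4A had been seen, so its count supports nothing. In it 4 genes were tested and 1 passed, lower, against 2.22% of all genes tested: AGT, angiotensinogen, was counted 12, 16 and 28 times in the control and 6, 2 and 2 times with sgRNA #2 (log2 fold change -2.35 ± 0.464, adjusted p = 0.00735). AGT too reached 10 counts in the control libraries alone, so that it was admitted to the test by the group where it is high. SERPINA1, alpha-1 antitrypsin, was at 4.64 and 2.52 CPM in the control and sgRNA #2 groups (adjusted p = 0.128, and 0.0107 with the block). The other two tested, PROC (protein C of the clotting system, the most abundant) and APOH (apolipoprotein H), stood at 0.01 and 0.02 on the log2 scale (adjusted p = 0.990 and 0.988), and PROC, APOH and SERPINA1 were picked after their values had been seen. Of the other 26 genes, 13 had no count in any library.

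Lung alveolar and airway genes, among them the known targets of NKX2-1, gave 3 changes by adjusted p in 10 genes tested of 18 listed, 2 lower and 1 higher, against 2.22% and 0.464% of all genes tested. SFTPB fell, as given above. It is the gene that sgRNA #2 targets, so its place in the counts of lower genes tells nothing about the list. LAMP3, of lamellar bodies, fell from 14.2, 20.1 and 14.6 CPM to 2.13, 5.4 and 6.15 CPM (log2 fold change -1.86 ± 0.251, adjusted p = 1.7e-04). The study described LAMP3 as weakly repressed in its own DESeq2 analysis, where it did not pass the cut-off on adjusted p. DESeq2 here gave LAMP3 an adjusted p of 7.76e-09, and the cause of that difference was not tested. SFTPA1, surfactant protein A1, rose from 184, 196 and 182 CPM to 234, 284 and 262 CPM (log2 fold change 0.47 ± 0.0737, adjusted p = 8.96e-04). With the replicate block 3 genes of the list passed as higher and 3 as lower, against 3.97% and 6.06% of all genes tested. The genes added, named after their values had been seen, were SFTPA2 (surfactant protein A2, log2 fold change 0.36, adjusted p = 0.0176), CD274 (the checkpoint ligand PD-L1, 0.31, adjusted p = 0.00445) and ABCA3 (a lipid transporter of lamellar bodies, -0.21, adjusted p = 0.00176). Without the block and with 1 library left out their log2 fold changes ran from 0.24 to 0.55, from 0.20 to 0.42 and from -0.27 to -0.15. The study chose several of these genes as NKX2-1 targets, so their directions are not independent evidence about it.

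Of the 6 epithelial markers, read as a check of the labelled cell line, 5 were tested; KRT19 had 0 to 4 counts per library. EPCAM was low, at 8.39 CPM in the control and 7.99 CPM with sgRNA #2, and KRT18 was at 564 and 550 CPM; neither passed (adjusted p = 0.931 and 0.937), and EPCAM, KRT18 and KRT19 were picked after their values had been seen. The keratins KRT8 and KRT7 were at 1772 ± 249 and 1372 ± 219 CPM in the control and 1614 ± 182 and 1327 ± 172 CPM with sgRNA #2 (SD, n = 3; adjusted p = 0.683 and 0.924); with the block KRT8 passed (0.0234) and KRT7 did not (0.616). CDH1, E-cadherin, fell from 238 ± 16 to 188 ± 5.07 CPM (SD, n = 3; log2 fold change -0.34, adjusted p = 0.00728). The 6 epithelial markers summed to 3742, 4543 and 3579 CPM in the control and 3527, 4156 and 3378 CPM with sgRNA #2, and KRT8 made up 44.3% of the sum. The part of this in the changes above was not tested.

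Markers of other cell types were read in the same libraries. The 8 fibroblast markers summed to 11.7 CPM in the control and 11.3 CPM with sgRNA #2, of which COL1A1 gave 64.0%, and the 2 tested, COL1A1 and THY1, did not pass. The 8 immune markers summed to 68.4 and 70.0 CPM, with 95% from CD68, a lysosomal protein at a mean of 140 TPM (above 86.2% of tested genes), and 4 of them at 0 in all libraries; CD68 and CD14 did not pass. The 5 endothelial markers summed to 0.714 and 0.400 CPM, led by KDR, and none was tested.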

How the data were processed

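RNA-seq counts of 6 libraries were analysed, 3 with sgRNA #2 and 3 with the sgRNA control, grouped by their labels. The deposited values are raw counts per gene symbol that the authors made with HTSeq. The submitters' processing notes also name Trim Galore, FastQC, Bowtie2 2.3.3.1, SAMtools, Picard and hg38; the annotation, the strand setting and the read length are not given in the sources used here. Reads in no feature (19.7% to 21.1%) or in several (2.61% to 2.75%) stayed out of library sizes and tests, and reads that did not align or aligned to several places are listed at 0.

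The 13356 of 26485 genes that reached 10 counts in 3 libraries or more were tested with edgeR 4.0.16 (TMM, quasi-likelihood F test; R 4.3.3), with Benjamini-Hochberg adjustment over all of them and the study's cut-offs (adjusted p under 0.05, log2 fold change of at least 1 in size). The standard error is the log2 fold change divided by the square root of F. The script was tested on simulated data. Single values were compared by two-sided exact permutation tests, which reach 0.10 at best. TPM used the summed exon length of GENCODE release 44, which may differ from the authors' annotation; 24503 symbols matched, 1342 by an older symbol, with 99.4% of counts. Replicate pairs of a group differed by more than sampling noise (chi-square per degree of freedom 2.73 to 3.61). Same-numbered libraries deviated from their group means together (r = 0.253 to 0.277 over genes), so the numbers from the labels were taken to pair the libraries and the block was run as an alternative.

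The 8 genes and the lists were chosen with earlier results of these data known. Beside the 8 genes, the text names of every list up to 2 genes past an adjusted p of 0.05 with the smallest p and up to 2 with the highest mean TPM, and the 3 genes most like NKX2-1 and like the most abundant member; others are named as chosen after their values were seen. Alternatives were RLE size factors, library totals, no filter, at least 10 counts in every library, DESeq2 1.42.0, the block, leaving out each library and, added later, glmTreat. Intervals are 95% and cover what the model measures; limits for 0 counts cover counting error only. Some genes of the lists are not reported here.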

Additional observations from a re-analysis of the deposited data

How the results depend on the processing

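The number of genes called was 96, and between 78 and 106 with 1 library left out; it was 63 with at least 10 counts asked of every library and 27 with the test of a change above 2-fold. HNF4A was called in every alternative other than the test of a change above 2-fold, with log2 fold changes from -1.11 to -1.01. Of the 8 factors, 1 passed an adjusted p of 0.05, 2 with the replicate block (HNF4A and FOXA1) and 0 with the test of a change above 2-fold, where 0 were called and 0 had an unadjusted p under 0.05 (0.0854 for HNF4A); DESeq2 gave 1. Over all fixed lists and the 8 factors 11 genes passed, 26 with the block and 1 (SFTPB) with the test of a change above 2-fold, which asks more of a gene by its construction. Of all genes tested 2.69% passed without the block and 10.0% with it, so the move from 11 to 26 is not by itself a result about the lists. The 11 include SFTPB, the targeted gene, and VIL1, which entered the test through the control libraries alone. The order of levels kept all 8 places, 6 in control replicates 1 and 2, where HNF4A came before SOX9, and 5 with the longest transcript as the length. Leaving out a library moved these log2 fold changes, none of them past the threshold, across 0: TBX3 from -0.091 to 0.11, NKX2-5 from -0.16 to 0.11, GATA6 from -0.14 to 0.15, CEBPA from -0.12 to 0.0091, HNF4G from -0.067 to 0.31, SOX9 from -0.011 to 0.076, CEBPD from -0.10 to 0.084, ONECUT1 from -0.32 to 0.17, SOX12 from -0.064 to 0.036, ID1 from -0.090 to 0.089, ID3 from -0.054 to 0.11, HHEX from -0.048 to 0.091, CEBPA-AS1 from -0.16 to 0.10, KRT7 from -0.16 to 0.073, COL1A1 from -0.022 to 0.26, THY1 from -0.23 to 0.11, CD14 from -0.11 to 0.26, APOH from -0.091 to 0.20, PROC from -0.14 to 0.15, EPCAM from -0.19 to 0.070 and KRT18 from -0.17 to 0.063. CEBPA-AS1 also changed sign with the block (0.0061) and with DESeq2 (0.0027), and TBX3 with the block (-0.00036). The cause was not tested. The median over all genes stayed within 0.01 of 0 in the log2 scale under every scaling. Depth limits GATA6, HNF4G and the human NKX2-1 row, at 12 to 85 counts per library, most. The block, which changed the call of FOXA1, WWTR1, CEBPB, FGA, FGB, CLDN2, KRT8, SERPINA1, TOX2, HLX, SOX21, KLF4, SFTPA2, CD274 and ABCA3 to pass, changed no other call named here.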
